A study of Homo sapiens with 6 samples.

Results

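The genes described here are the amino acid transporters of 7 solute carrier (SLC) families: SLC1, SLC3, SLC6, SLC7, SLC36, SLC38 and SLC43. They were taken by symbol, as every row named SLC1A, SLC3A, SLC6A, SLC7A, SLC36A, SLC38A or SLC43A followed by a number, which gave 54 of the 32029 genes listed. RNA was sequenced from SW480 cells, an established human colorectal cancer line, after 48 h with siControl, a non-targeting small interfering RNA (siNC in the sample titles), or with siZEB1, which targets the transcriptional repressor ZEB1. Both groups had 3 cultures of the same line and unmodified genotype, so the design compared lowered ZEB1 with a control transfection in one cell line. Of the 54 genes, 30 had 10 or more reads in at least 3 cultures and were tested, and 24 did not reach that limit.

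Amino acids cross membranes through carriers that differ in substrate and driving force. The heteromeric transporters pair a heavy chain, which brings the complex to the cell surface, with a light chain of the SLC7 family, which carries the substrate. LAT1, the complex of SLC3A2 with SLC7A5, exchanges glutamine for leucine and other large neutral amino acids, and xCT, the complex of SLC3A2 with SLC7A11, exchanges glutamate for cystine. SLC1 and SLC38 carriers couple uptake to sodium, SLC36A1 couples it to protons, SLC43 carriers are uniporters, and SLC6 carriers use sodium and chloride. ZEB1 binds E-boxes with the core CACCTG, and many of these carriers are known targets of ATF4 in amino acid shortage, or of NRF2 under oxidative stress.

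Start-site windows of RefSeq, 250 bases before to 50 bases after an annotated start in GRCh38.p14, are shown for SLC3A2, whose reads moved most in number, and for the pair SLC43A2 and SLC43A1, which moved in opposite directions. Capitals mark CACCTG, TGATGNAA (a C/EBP-ATF element) or TGACNNNGC (the core of an antioxidant response element), each searched on both strands. A gene with several annotated starts had several windows: SLC3A2 and SLC43A2 had 3 each and SLC43A1 had 2. Those of SLC3A2 and SLC43A2 that held a motif are shown, with 1 of SLC43A1. The SLC3A2 windows shown lie on the plus strand at chr11:62855859-62856158 (upstream start) and chr11:62881449-62881748 (downstream start), and the others on the minus strand at chr17:1604985-1605284 (SLC43A2) and chr11:57515653-57515952 (SLC43A1).
SLC3A2 upstream start: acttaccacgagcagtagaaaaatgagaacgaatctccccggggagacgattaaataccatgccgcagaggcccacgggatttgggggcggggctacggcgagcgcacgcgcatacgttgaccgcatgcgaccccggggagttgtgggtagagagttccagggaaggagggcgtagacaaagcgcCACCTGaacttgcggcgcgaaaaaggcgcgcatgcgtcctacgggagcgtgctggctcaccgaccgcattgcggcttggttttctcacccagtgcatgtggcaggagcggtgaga
SLC3A2 downstream start: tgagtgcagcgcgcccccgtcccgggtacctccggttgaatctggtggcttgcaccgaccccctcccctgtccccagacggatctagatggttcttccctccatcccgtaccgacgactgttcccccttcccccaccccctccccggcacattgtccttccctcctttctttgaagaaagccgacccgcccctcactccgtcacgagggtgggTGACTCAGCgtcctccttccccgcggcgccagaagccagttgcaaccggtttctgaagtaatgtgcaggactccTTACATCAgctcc
SLC43A2: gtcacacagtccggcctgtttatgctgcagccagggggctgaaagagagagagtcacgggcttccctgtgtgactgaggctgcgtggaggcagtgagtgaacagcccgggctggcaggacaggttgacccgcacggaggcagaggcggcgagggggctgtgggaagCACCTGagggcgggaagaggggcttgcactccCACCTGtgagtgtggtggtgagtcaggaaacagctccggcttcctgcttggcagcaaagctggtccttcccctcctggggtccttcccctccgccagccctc
SLC43A1: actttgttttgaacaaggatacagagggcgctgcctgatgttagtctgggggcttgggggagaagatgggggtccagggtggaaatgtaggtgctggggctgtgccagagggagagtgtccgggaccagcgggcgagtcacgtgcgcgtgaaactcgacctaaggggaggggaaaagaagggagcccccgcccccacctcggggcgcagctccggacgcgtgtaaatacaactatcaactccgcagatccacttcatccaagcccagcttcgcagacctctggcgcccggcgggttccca

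The upstream SLC3A2 window held 1 CACCTG, which began 65 bases before the start. The downstream one held TGACTCAGC, beginning 37 bases before the start, and TTACATCA, the other strand's reading of TGATGNAA, beginning 37 bases after it. The SLC43A2 window shown held CACCTG at 84 and at 52 bases before its start, which lies inside the gene. The other 2 windows of SLC43A2, at its 5′ end, the remaining one of SLC3A2 and both of SLC43A1 held none of the 3 motifs. Windows were found for 25 of the 30 tested genes, 46 windows in all, and SLC1A2, SLC6A6, SLC6A12, SLC7A2 and SLC7A11 had no entry. CACCTG was in 7 of the 46 windows (15.2%), against 20.6% of the 35116 windows of all genes. Its 6 genes were SLC3A2, SLC38A9 and SLC43A2, which were higher with siZEB1, SLC38A10, which was lower, and SLC36A1 and SLC38A2, which were not called. TGATGNAA was in 6 windows (13.0%, against 3.62% of all windows). The genes with it were SLC1A3, SLC1A4 and SLC3A2, which were higher, and SLC1A5, SLC7A1 and SLC38A1, which were not called. TGACNNNGC was in 7 (15.2%, against 13.3%). These are matches of letters, and no binding was measured.

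The total reads per culture ranged from 19040636 to 22357633. ZEB1 itself was counted 1247, 1276 and 908 times in siControl against 136, 132 and 162 times in siZEB1 (log2 fold change -2.85 ± 0.11, SE, adjusted p = 4.85e-12). Replicates differed by 2.26 to 9.53 times counting noise (chi-square over degrees of freedom). In siControl, replicate 3 stood farthest from its group, at 9.53 and 7.18 times, against 3.62 between replicates 1 and 2. In siZEB1, replicate 3 also stood farthest, at 4.92 and 6.97 times, against 2.26 between replicates 1 and 2. Of the epithelial markers, KRT8 and KRT18 had mean levels between 1418 and 3534 CPM (reads scaled to the TMM-adjusted library size) in both groups. EPCAM, at 54.7 and 454 CPM in siControl and siZEB1, KRT19, at 72.3 and 223 CPM, and VIL1, at 4.08 and 20.7 CPM, were higher with siZEB1. CDX2 was lower, at 103 and 41.8 CPM, KRT20 stayed under 1 CPM, and CDH17, GPA33, GUCY2C and LGALS4 had at most 17 reads in a culture. Of 12 markers of other cells listed, 6 were tested, and CD3E, COL1A2, COL3A1, ALB and GFAP had at most 5 reads in a culture. COL1A1 was the most abundant of the 6, at 10.2 CPM in siControl and 8.70 CPM in siZEB1 (143 to 227 reads), and was not called. PDGFRB (3.98 and 5.33 CPM) was the only one of the 6 called. Changes in these markers moved with the knockdown, and their part in the transporter results was not tested. In bulk RNA, fewer cells of a kind and less RNA per cell cannot be told apart.

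The transporter transcripts called included higher and lower ones with siZEB1, and the share of lower ones was near that of all genes. Of the 30 tested genes, 10 were higher with siZEB1, against 19.0% of all 14996 genes tested, and 6 were lower, against 21.2% (edgeR quasi-likelihood test, Benjamini-Hochberg adjusted p under 0.05). The other 14 were not called. The count of lower genes was 3 without siControl replicate 1 or 2 or siZEB1 replicate 1. The higher genes were SLC7A11, SLC6A9, SLC43A2, SLC36A4, SLC3A2, SLC38A9, SLC1A3, SLC1A4, SLC7A8 and SLC6A6, and the lower genes were SLC6A4, SLC6A12, SLC43A1, SLC7A6, SLC38A10 and SLC7A7. Of the 30, 4 passed the test with at least a 1.5-fold change, near the share of all genes (14.9%). The median log2 fold change was 0.14, beside -0.01 over all genes. Without regard to sign, the median log2 fold change was 0.29, beside 0.25 over all genes. The cultures of the groups did not overlap for 19 of the 30 genes, against 49.5% of all genes. All but SLC6A4 of the tested genes had 10 or more reads in every culture. SLC6A4 reached 10 reads in all 3 siControl cultures and in 2 of the 3 siZEB1 cultures, so it met the limit within the siControl group alone, where it is higher.

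**Figure D1:**
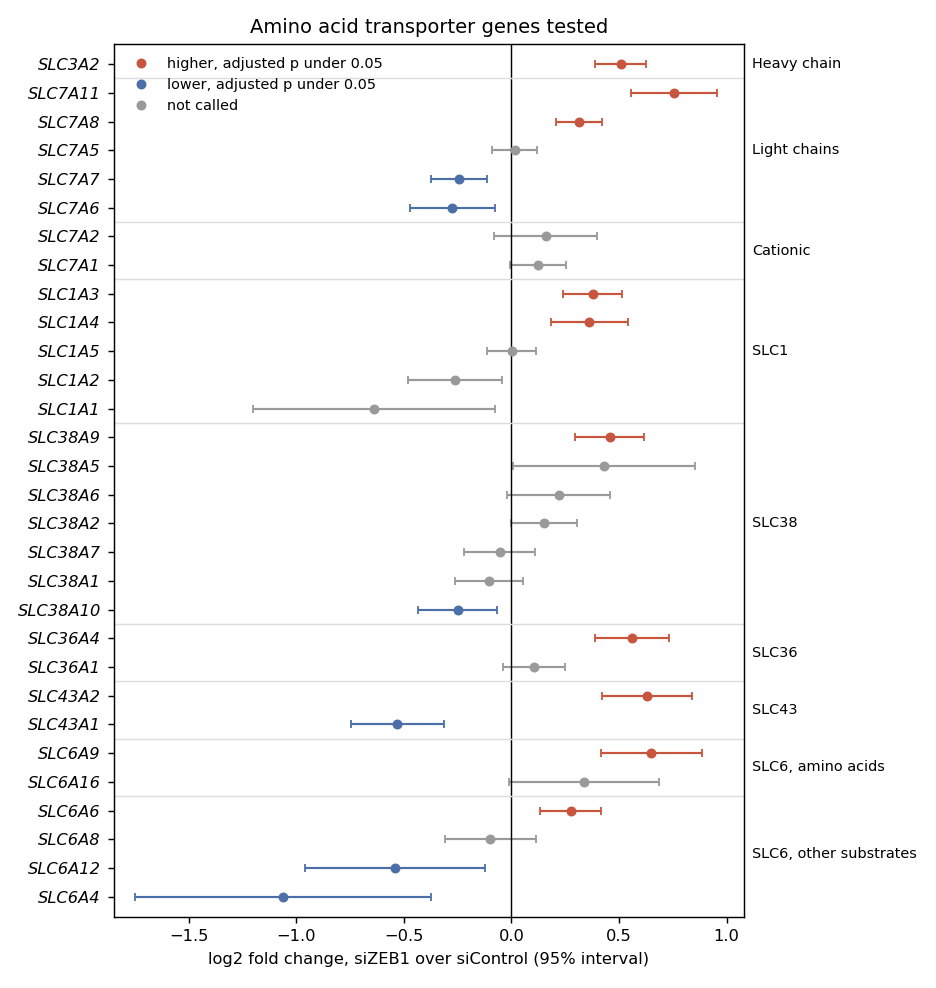
Log2 fold change of siZEB1 over siControl (horizontal axis) for the 30 transporter genes tested, grouped by family, with the point as the estimate and the bar as its 95% interval over 3 cultures a group. Red marks the 10 genes called higher, blue the 6 called lower and grey the 14 not called.

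Together the 54 genes took 0.573% ± 0.005 of all reads in siControl (SD, n = 3) and 0.632% ± 0.004 in siZEB1, with no overlap between cultures. The exact permutation test gave p = 0.10, two-sided, the smallest that 3 against 3 cultures allow. Without SLC3A2 the shares were 0.480% ± 0.005 and 0.500% ± 0.010 (exact p = 0.10), and without SLC3A2 and SLC7A8 they were 0.432% ± 0.005 and 0.441% ± 0.009 (p = 0.30). The greater share of reads thus lay for the most part in SLC3A2.

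Between genes, levels were compared as CPM per kilobase of exon, with exons merged over all GENCODE 29 transcripts of a gene. The 5 highest in siControl were SLC1A5 at 375 ± 19.3, SLC7A5 at 242 ± 8.62, SLC3A2 at 180 ± 10.3, SLC7A8 at 80.2 ± 0.42 and SLC38A2 at 49.8 ± 5.06 CPM per kilobase (SD, n = 3). SLC38A1 followed at 48.0 ± 4.95, within the spread of SLC38A2. With siZEB1, SLC3A2 was at 256 ± 14.7 and SLC7A5 at 245 ± 7.18 CPM per kilobase, so the order of their means was the reverse of that in siControl although their spreads touched. The lowest tested gene was SLC6A4, at 0.17 ± 0.02 CPM per kilobase in siControl and 0.08 ± 0.02 in siZEB1.

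**Figure D2:**
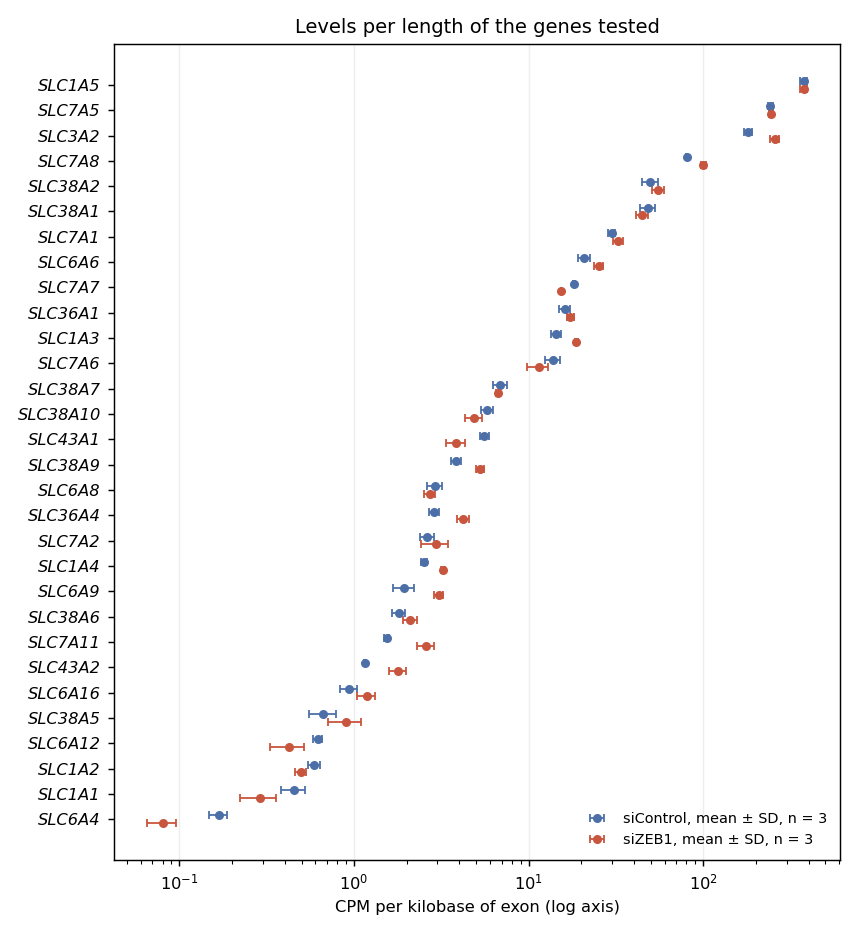
Level of each tested transporter in CPM per kilobase of exon (logarithmic horizontal axis), as the mean and SD of 3 siControl cultures (blue) and 3 siZEB1 cultures (red). The genes span from 0.17 CPM per kilobase (SLC6A4) to 375 CPM per kilobase (SLC1A5) in siControl, and most differences between groups are small beside this range.

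SLC3A2 (ENSG00000168003, chr11:62856102-62888875, plus strand, GRCh38), the heavy chain CD98hc, was higher with siZEB1. The siControl cultures held 18847, 20657 and 19110 of its reads and the siZEB1 cultures 25281, 26847 and 23834, or 933 ± 53.3 and 1327 ± 76.2 CPM (SD, n = 3). Every siZEB1 culture was above every siControl culture. On the log2 scale the change was 0.51 ± 0.06 (SE, adjusted p = 1.96e-06). The other heavy chain, SLC3A1, had 1 read in all 6 cultures together.

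The light chains that join SLC3A2 did not move as a group: SLC7A11 and SLC7A8 were higher, SLC7A7 and SLC7A6 were lower and SLC7A5 was not called. SLC7A11 (ENSG00000151012, chr4:138164097-138242349, minus strand), the cystine-glutamate exchanger, had 324, 333 and 276 reads in siControl and 453, 440 and 538 in siZEB1. Its level was 14.8 ± 0.46 and 25.0 ± 2.75 CPM, with siZEB1 replicate 3 the highest at 28.1 CPM (log2 fold change 0.75 ± 0.10, SE, adjusted p = 7.52e-06). This was the greatest rise among the 30 genes, in a carrier of low abundance. An antisense gene, SLC7A11-AS1, covers 8.97% of its exons on the opposite strand and had at most 8 reads in a culture. The use of strand in counting was not stated in the sources used here.

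SLC7A8, the light chain LAT2 for neutral amino acids, had 10177, 10824 and 9246 reads in siControl and 11686, 11406 and 11108 in siZEB1. The level rose from 481 ± 2.49 to 598 ± 19.7 CPM, and the groups did not overlap (log2 fold change 0.31 ± 0.05, SE, adjusted p = 0.0001). SLC7A5, the light chain LAT1, had 23667, 25519 and 23004 reads in siControl and 22650, 22058 and 21741 in siZEB1, or 1149 ± 40.9 and 1161 ± 34.1 CPM. Its groups overlapped, and the log2 fold change was 0.02 with a 95% interval from -0.09 to 0.12 (adjusted p = 0.83).

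SLC7A7, the light chain y+LAT1 that exports cationic amino acids, was at 92.7 ± 1.22 CPM in siControl and 78.4 ± 0.34 CPM in siZEB1, with little spread and no overlap (log2 fold change -0.24 ± 0.06, SE, adjusted p = 0.0045). SLC7A6, y+LAT2, was at 109.5, 112 and 92.1 CPM in siControl and 85.9, 74.7 and 98.7 CPM in siZEB1. Its cultures overlapped through siControl replicate 3 and siZEB1 replicate 3, and its call (log2 fold change -0.27 ± 0.09, adjusted p = 0.0261) was lost, with adjusted p up to 0.159, in 4 of the 6 fits without 1 culture. Those were the fits without siControl replicate 1 or 2 or siZEB1 replicate 1 or 2. SLC7A6OS and AC020978.9 cover 55.6% of its exons on the opposite strand. SLC7A5P1, a pseudogene named after SLC7A5, had 69, 70 and 56 reads in siControl and 38, 36 and 36 in siZEB1 (log2 fold change -0.69 ± 0.19, SE, adjusted p = 0.00758). How reads shared by such copies were assigned is not given in the sources used here.

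Taken within each culture, the heavy chain gained on the sum of its tested light chains. It did not gain on SLC7A11, which rose more (log2 fold change 0.75, against 0.51 for SLC3A2). SLC3A2 reads per kilobase over the sum of the 5 tested light chains were 0.491, 0.502 and 0.527 in siControl and 0.671, 0.732 and 0.654 in siZEB1, a ratio of means of 1.35. Over SLC7A5 alone they were 0.744 ± 0.016 and 1.05 ± 0.06 (SD, n = 3). Among light chains, SLC7A8 made up 22.6% ± 0.45 of the reads per kilobase in siControl and 26.7% ± 0.29 in siZEB1, SLC7A5 68.0% ± 1.05 and 65.5% ± 0.29, and SLC7A11 0.43% ± 0.02 and 0.69% ± 0.09. SLC7A7 made up 5.08% ± 0.15 and 4.09% ± 0.10, and SLC7A6 3.88% ± 0.46 and 3.05% ± 0.44. All but SLC7A6 of these shares and ratios had cultures that did not overlap, with an exact permutation p = 0.10 each, the smallest that 3 against 3 cultures allow (0.12 after Benjamini-Hochberg adjustment over the 12 ratios and shares compared). The SLC7A6 share gave an exact permutation p = 0.20. The pairs and shares were chosen after the values had been seen.

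**Figure D3:**
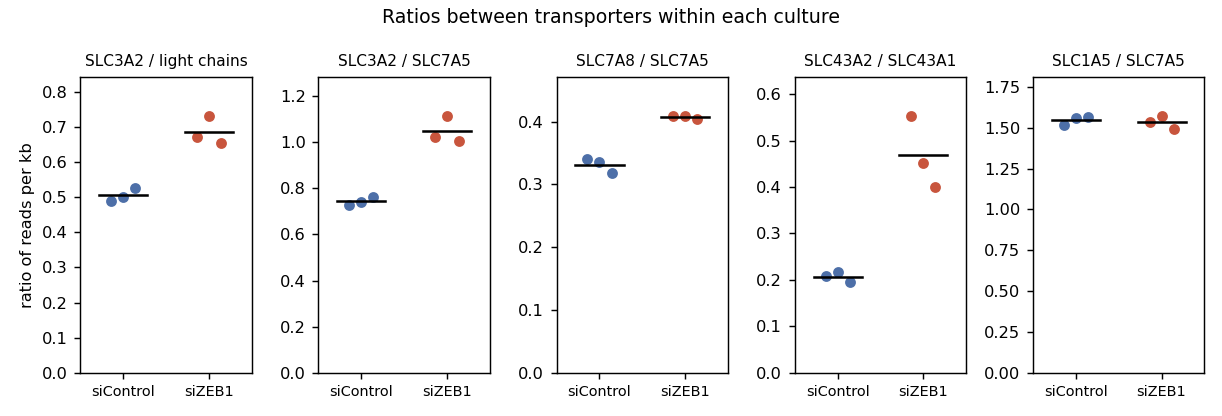
Ratios of reads per kilobase between transporters in each culture (points) with group means (lines), siControl in blue and siZEB1 in red. SLC3A2 over SLC7A5 was 0.744 in siControl and 1.05 in siZEB1, while SLC1A5 over SLC7A5 overlapped at 1.55 and 1.53.

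Of the cationic amino acid carriers tested, neither was called. SLC7A1, the main arginine importer CAT1, was at 230 ± 10.1 CPM in siControl and 250.1 ± 15.9 CPM in siZEB1 (log2 fold change 0.12, 95% interval -0.01 to 0.25, adjusted p = 0.13). SLC7A2 was at 20.7 ± 1.88 and 23.2 ± 4.10 CPM, with siZEB1 replicate 3 above the rest (log2 fold change 0.16, adjusted p = 0.28).

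In the SLC1 family, 2 of 5 tested genes were higher and none was called lower. SLC1A5 (ENSG00000105281, chr19:46774883-46788594, minus strand), the glutamine carrier ASCT2, had 25209, 27957 and 25334 reads in siControl and 24401, 24378 and 22753 in siZEB1. The 1249 ± 64.3 and 1250 ± 54.2 CPM of the groups overlapped throughout, and the log2 fold change was 0.0004 with a 95% interval from -0.11 to 0.11 (adjusted p = 0.997). SLC1A3, the glutamate carrier GLAST, was at 91.4, 94.8 and 84.0 CPM in siControl and 116, 115 and 120 CPM in siZEB1 (log2 fold change 0.38 ± 0.07, SE, adjusted p = 0.000185). SLC1A4, the neutral amino acid exchanger ASCT1, was at 17.4 ± 0.76 and 22.4 ± 0.71 CPM (0.36 ± 0.08, adjusted p = 0.00241), and both genes had separate groups.

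The other glutamate carriers pointed down without passing the test. SLC1A2 was at 13.5 ± 1.01 and 11.3 ± 0.80 CPM (log2 fold change -0.26 ± 0.10, SE, adjusted p = 0.0519). SLC1A1 had 35, 37 and 41 reads in siControl and 19, 19 and 28 in siZEB1 (-0.64 ± 0.27, adjusted p = 0.0653). Neither gene's groups overlapped, with every siControl culture above every siZEB1 culture.

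Of the 7 SLC38 genes tested, 1 was higher, 1 was lower and 5 were not called. SLC38A9, the lysosomal arginine sensor, was at 36.1, 34.2 and 31.7 CPM in siControl and 49.2, 44.4 and 46.4 CPM in siZEB1, with no overlap (log2 fold change 0.46 ± 0.08, SE, adjusted p = 0.000148). SLC38A10 was at 44.7 ± 3.31 and 37.6 ± 4.09 CPM (-0.25 ± 0.09, adjusted p = 0.0304). Its cultures overlapped by siControl replicate 1 and siZEB1 replicate 2, and the call was lost without siControl replicate 2 or 3 or siZEB1 replicate 1 or 3 (adjusted p up to 0.149).

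The system A carriers that take up glutamine, SLC38A1 and SLC38A2, were abundant and not called. SLC38A2 had 7615, 7521 and 5637 reads in siControl and 6667, 6635 and 7606 in siZEB1, or 329 ± 33.4 and 365 ± 28.2 CPM, with overlapping groups (log2 fold change 0.15 ± 0.07, SE, 95% interval 0.00 to 0.31, adjusted p = 0.11). SLC38A1 was at 516, 503 and 424 CPM in siControl and 436, 417 and 490 CPM in siZEB1 (-0.10 ± 0.07, adjusted p = 0.28). Each was called in 1 fit without a culture: SLC38A2 higher without siControl replicate 1 (adjusted p = 0.0322) and SLC38A1 lower without siControl replicate 3 (adjusted p = 0.014). The remaining log2 fold changes were 0.43 (SLC38A5), 0.22 (SLC38A6) and -0.05 (SLC38A7), with adjusted p of 0.0974, 0.13 and 0.61.

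Of the SLC36 carriers tested, SLC36A4 was higher and SLC36A1 was not called. SLC36A4 was at 29.8, 27.0 and 26.3 CPM in siControl and 39.0, 39.2 and 44.4 CPM in siZEB1 (log2 fold change 0.56 ± 0.08, SE, adjusted p = 3.79e-05). SLC36A1, the lysosomal and plasma membrane carrier PAT1, was at 113 ± 8.34 and 121 ± 5.13 CPM, with overlapping groups (0.10 ± 0.07, adjusted p = 0.25).

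The SLC43 uniporters for large neutral amino acids moved apart. SLC43A2 (ENSG00000167703, chr17:1569267-1628886, minus strand), LAT4, had 255, 276 and 238 reads in siControl and 369, 395 and 319 in siZEB1, or 12.2 ± 0.20 and 18.9 ± 2.01 CPM (log2 fold change 0.63 ± 0.10, SE, adjusted p = 7.77e-05). SLC43A1 (ENSG00000149150, chr11:57484534-57515786, minus strand), LAT3, had 408, 422 and 405 reads and 222, 291 and 266 reads, or 19.7 ± 1.16 and 13.6 ± 1.71 CPM (-0.53 ± 0.10, adjusted p = 0.000512). Neither gene's groups overlapped. The ratio of SLC43A2 to SLC43A1 in reads per kilobase was 0.208, 0.218 and 0.196 in siControl and 0.554, 0.452 and 0.399 in siZEB1, a ratio of means of 2.26 (exact permutation p = 0.10). SLC43A3 had 1 read at most in a culture, and AP000781.2 covers 29.9% of its exons on the same strand.

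**Figure D4:**
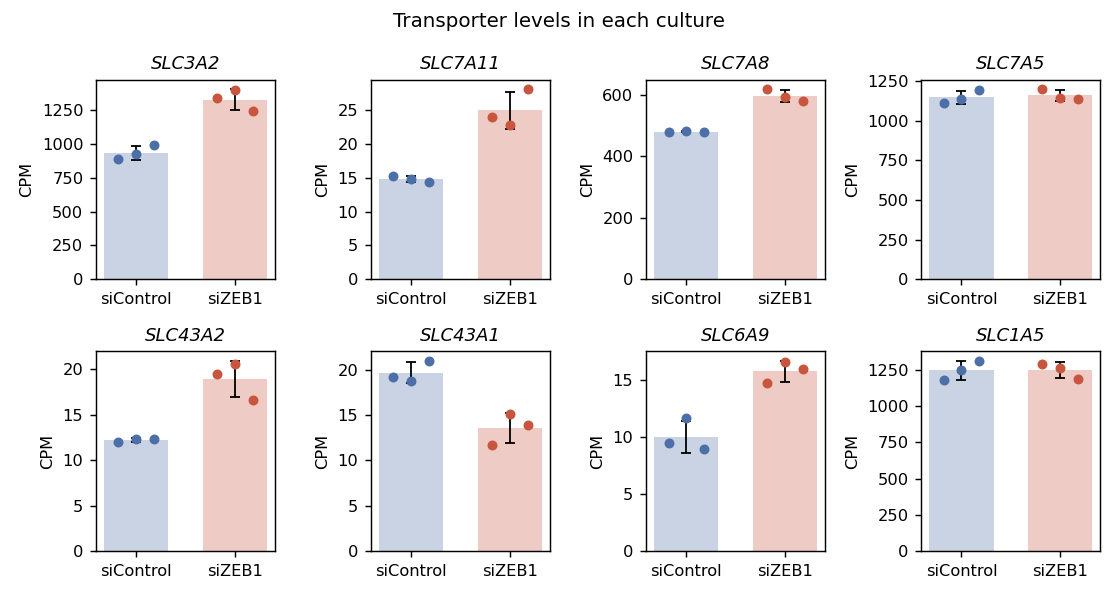
CPM of 8 transporters in each culture (points), with bars at the group mean and error bars of 1 SD (n = 3), siControl in blue and siZEB1 in red. SLC3A2, SLC7A11, SLC7A8, SLC43A2 and SLC6A9 lie higher in every siZEB1 culture, SLC43A1 lies lower, and SLC7A5 and SLC1A5 overlap.

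In the SLC6 family, 1 of the 2 tested carriers of amino acids was higher. SLC6A9 (ENSG00000196517, chr1:43991500-44031467, minus strand), the glycine carrier GlyT1, had 201, 260 and 172 reads in siControl and 278, 318 and 305 in siZEB1. The level in siZEB1 was 15.7 ± 0.92 CPM, and no siControl culture, the highest at 11.6 CPM, reached the lowest siZEB1 culture at 14.7 CPM (log2 fold change 0.65 ± 0.11, SE, adjusted p = 0.000176). SLC6A16, an orphan carrier, was at 3.35 ± 0.38 and 4.24 ± 0.50 CPM (0.34, adjusted p = 0.12).

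Of the 4 tested SLC6 carriers of other solutes, 1 was higher, 2 were lower and 1 was not called. SLC6A6, the taurine carrier, was at 180, 177 and 157 CPM in siControl and 216, 193 and 215 CPM in siZEB1 (log2 fold change 0.28 ± 0.07, SE, adjusted p = 0.00354). SLC6A8, the creatine carrier, was at 15.9 ± 1.47 and 14.9 ± 1.07 CPM (-0.10, adjusted p = 0.46). SLC6A12, the betaine carrier, had 71, 68 and 66 reads and 53, 37 and 38 reads (-0.54 ± 0.20, adjusted p = 0.0369).

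SLC6A4 (ENSG00000108576, chr17:30194319-30236002, minus strand), the serotonin carrier, had 28, 26 and 20 reads in siControl and 10, 13 and 9 in siZEB1. Its level was 1.17 ± 0.14 and 0.56 ± 0.11 CPM, and its log2 fold change (-1.06 ± 0.33, SE, adjusted p = 0.0148) was the greatest fall among the 30 genes. The calls of SLC6A4 and SLC6A12 rest on few reads. The SLC6A4 call was lost without siControl replicate 1 or siZEB1 replicate 1 or 3 (adjusted p up to 0.059), and the SLC6A12 call was lost without any culture but siZEB1 replicate 1 and with DESeq2 (adjusted p up to 0.132).

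The 24 genes under the limit had 1 to 10 reads at most in a culture and 146 reads in all. They included SLC3A1, the light chains SLC7A9 and SLC7A10, the other SLC7 genes SLC7A3, SLC7A4 and SLC7A14, the SLC1 genes SLC1A6 and SLC1A7, and SLC36A2 and SLC36A3. Also among them were SLC38A3, SLC38A4, SLC38A8, SLC43A3, SLC6A2, SLC6A7, SLC6A11, SLC6A13, SLC6A14, SLC6A17, SLC6A18, SLC6A19 and SLC6A20. Of them, 21 had at most 4 reads in each culture, and the exceptions were SLC1A7 and SLC6A13 with at most 8 and SLC6A20 with at most 10. The group thus held SLC3A1 and SLC7A9, the pair that takes up cystine and dibasic amino acids at the gut and kidney brush border, and SLC6A19, the brush border carrier of neutral amino acids. Exons of SLC3A1, SLC6A2 and SLC43A3 are shared with a gene on the same strand over 26.9%, 17.9% and 29.9% of their length, which counting may leave unassigned, so their low counts are less certain.

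Genes that act with these carriers were read from 4 lists, chosen with earlier results of these data known. Their called shares therefore do not test the lists against all genes. Of 26 other amino acid and peptide transporters tested, 9 were higher (34.6%) and 8 lower (30.8%), against 19.0% and 21.2% of all genes tested. The higher count was 5 without siControl replicate 2 or siZEB1 replicate 2, and the median log2 fold change was 0.06. The largest rises were SLC25A18 (0.96, 12 to 34 reads), SLC25A13 (0.38), a mitochondrial aspartate-glutamate carrier, and SLC25A40 (0.37). The largest falls on the list were SFXN2 (-0.91), a mitochondrial sideroflexin, SLC22A4 (-0.74), an organic cation carrier, and SLC26A6 (-0.57), an anion exchanger. The list is thus wider than its name.

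Of 32 genes of lysosomal amino acid sensing, 6 were higher (18.8%) and 12 lower (37.5%), against 19.0% and 21.2% of all genes tested. The lower count was 7 without siControl replicate 2, and the median log2 fold change was -0.13. MTOR, the kinase that the pathway controls, was lower, at 124 and 77.6 CPM (log2 fold change -0.68 ± 0.07, SE, adjusted p = 4.83e-07), as were its partners MLST8 (-0.54) and RPTOR (-0.46). SESN2, a leucine sensor that restrains the pathway, was higher (0.90, from 22.4 to 41.7 CPM, adjusted p = 6.98e-08), with LAMTOR4 (0.40) and SEC13 (0.35). SLC38A9 acts in this pathway and is counted among the transporters.

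Of 34 enzymes of the transported amino acids, 8 were higher (23.5%) and 12 lower (35.3%), against 19.0% and 21.2% of all genes tested. Their median log2 fold change was -0.01. PSAT1, which makes serine's precursor, fell most, with 4756, 4730 and 3993 reads in siControl and 1416, 1441 and 1456 in siZEB1 (log2 fold change -1.51 ± 0.06, SE, adjusted p = 8.11e-12). PYCR3 (-0.72), of proline synthesis, and ASL (-0.67), of arginine synthesis, followed. The largest rises were CHAC1 (0.49), which degrades glutathione, ODC1 (0.45), of polyamine synthesis, and CTH (0.42), which makes cysteine.

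Of 29 regulators of these carriers, 9 were higher (31.0%) and 5 lower (17.2%), against 19.0% and 21.2% of all genes tested. Their median log2 fold change was 0.05. TXNIP (1.14) and ARRDC3 (1.04), arrestins that take transporters off the cell surface, and TRIB3 (1.02) rose most. The largest falls were MYCN (-1.49, at most 19 reads), SGK1 (-0.68), a kinase that stabilizes carriers at the surface, and NEDD4 (-0.68), a ubiquitin ligase.

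**Figure D5:**
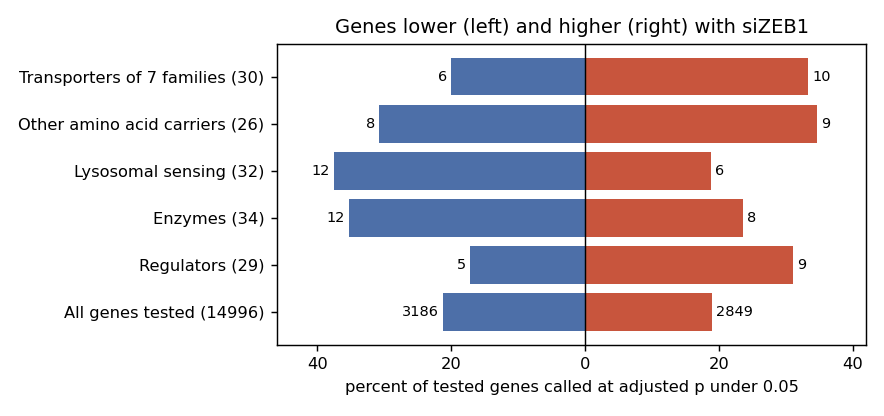
Percent of tested genes called lower (left, blue) and higher (right, red) with siZEB1 at adjusted p under 0.05, for the transporters, the 4 lists and all genes; the number at each bar is the count and the number in brackets the genes tested. The transporters had 10 higher and 6 lower of 30, and the sensing genes 6 and 12 of 32, beside 19.0% and 21.2% of all genes.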

How the data were processed

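Total RNA of 6 SW480 cultures was sequenced. The authors deposited a read count per gene for each culture, as whole numbers that were not normalized. The submitters' processing notes name Trimmomatic, HISAT2, SAMtools, featureCounts and the build hg38; versions, annotation, strand setting and the handling of reads shared by genes are not given in the sources used here.

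Genes were kept by filterByExpr of edgeR 4.0.16 (R 4.3.3), which left 14996, normalized by TMM and compared between the groups by its two-sided quasi-likelihood test with no covariate, and p-values were adjusted over all genes kept (Benjamini-Hochberg). A gene was called at adjusted p under 0.05. The standard error is the log2 fold change over the square root of F. The biological coefficient of variation was 6.58%. Positions, exon lengths and overlaps came from GENCODE 29 (GRCh38). Ratios within cultures were compared by exact permutation tests. The fit was checked on simulated data. Sample labels do not say whether the cultures were grown independently. The study's methods describe the replicates as biological, and its results call the controls independent. How the cultures were kept apart is not described, and p-values measure only the spread between these cultures of one cell line. Counting error sets the precision of low counts.

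The members and lists were chosen with earlier results of these data known. Members are named, except for an item not reported here, with full values for those called at 1.5-fold or more and for the 5 highest per length, and of each list up to 3 called rises and 3 called falls. Alternatives were DESeq2 1.42.0, median-of-ratios or library-size scaling, 3 other filters, a replicate block, each culture left out, and the thresholds of the study's methods.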

Additional observations from a re-analysis of the deposited data

How the results depend on the processing

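In 13 refits (DESeq2, 2 other scalings, 3 other filters, a replicate block and each culture left out), 12 of the 16 called transporters kept their call in each and none changed sign. SLC38A10, SLC6A12, SLC6A4 and SLC7A6 lost it in at least 1. SLC6A4 could be tested in 12 of the 13. Of the 14 not called, SLC1A1, SLC1A2, SLC38A1 and SLC38A2 were called in at least 1. Leaving out 1 culture gave 10 to 11 higher and 3 to 6 lower transporters, 5 to 10 higher other amino acid and peptide transporters, and 7 to 12 lower sensing genes; the fewest lower transporters came without siControl replicate 1 or 2 or siZEB1 replicate 1, the fewest higher other carriers without siControl replicate 2 or siZEB1 replicate 2, and the fewest lower sensing genes without siControl replicate 2. The cause of these losses was not tested.

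A fold above 1.5 with an unadjusted p under 0.05 gave 3 higher and 2 lower transporters by edgeR. In the same order it gave 1 and 2 other carriers, 1 and 2 sensing genes, 0 and 3 enzymes, and 4 and 4 regulators. With an unadjusted p under 0.001 it gave 3 and 0 transporters, 0 and 1 other carriers and 1 and 1 sensing genes. Under the same limit it gave 0 and 3 enzymes and 4 and 3 regulators. The fold threshold by construction leaves fewer genes. Shares of all genes at these unadjusted limits are not given here, so these counts cannot be set against them.

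The same-numbered cultures of the groups did not deviate together (correlations -0.05, -0.09 and -0.20). Differently numbered cultures gave -0.07 to 0.14. With 3 cultures a group, these values cannot settle whether the numbers mark pairs. A replicate block gave 10 higher and 4 lower transporters, without SLC7A6 and SLC38A10, and 7 lower sensing genes in place of 12.

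Values near 0 changed sign. The SLC1A5 log2 fold change was -0.00811 with library-size scaling and -0.00428 without a filter, and ranged from -0.0374 to 0.0368 with 1 culture left out. SLC7A5 ranged from -0.00824 to 0.0412 and SLC38A7 from -0.113 to 0.0193 in those fits, and neither was called in any.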
